A study of Mus musculus with 6 samples.

Results

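The genes described here are 36 markers of macrophage identity and receptors of phagocytosis, read in RNA-Seq counts of mouse osteoclast cultures. They were taken by symbol from a list, and all 36 had at least 10 counts summed over the libraries, of 16954 genes that did so and 55573 genes counted. They comprise 10 identity markers, 3 chains of complement C1q, 3 MS4A membrane proteins, 4 Fc gamma receptors, 5 scavenger receptors, 4 genes of TAM signaling and apoptotic cell uptake, and 7 lectin receptors.

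The study compared 3 control with 3 Rosa-Hes1 cultures. In the Rosa-Hes1 (Ctsk Cre/WT;Rosa Hes1) mice, Cre expressed from the *Ctsk* locus, which is active in differentiating osteoclasts, excises a STOP cassette so that HES1 is made from the *Rosa26* locus. The labels call the controls Wild type, whereas the methods describe littermates that carry the Rosa Hes1 allele with its STOP cassette and no Cre, so that the *Ctsk Cre* allele itself is also a difference between the groups. All mice were male and 10 weeks old, and bone marrow-derived macrophages (BMMs) were differentiated over 4 days in both groups, using 30 ng of M-CSF and 10 ng of RANKL per ml of medium. The inducible allele and the Cre line came from different strain backgrounds, and each library is of a whole culture, with no sorting of osteoclasts from mononuclear cells.

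Macrophages and osteoclasts share a myeloid precursor. M-CSF keeps the precursor alive, and RANKL makes it fuse into multinucleated cells that resorb bone. Macrophages recognize particles through Fc gamma receptors, which bind antibody, scavenger receptors, which bind modified lipoproteins and bacterial surfaces, lectin receptors, which bind sugars and glycolipids, and C1q and TAM receptors, which help clear dying cells. HES1, a Notch target, is a transcriptional repressor that binds short DNA sequences called N boxes and class C sites.

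The libraries held 13038362 to 15956331 reads within genes. Levels are given as CPM, in which each count is divided by the TMM-scaled total of its library and put on a scale common to all libraries, and levels of different genes are compared only as CPM per kilobase of exon. *Hes1* ranged over 0.30 to 0.56 CPM in controls and 4.83 to 6.91 CPM in Rosa-Hes1 cultures, a log2 fold change (Rosa-Hes1 over control) of 3.57 ± 0.30 (SE, n = 3 per group, edgeR, adjusted p = 0.00477). On the first principal component of all genes, with 52.2% of the variance, the control libraries were at -29.7, -13.1 and -13.9 and Rosa-Hes1 libraries 1 and 3 at 26.9 and 26.8. Rosa-Hes1 library 2 was at 3.03, nearest to the controls, so that results are also given without it where they change. No label states a pairing of library numbers across the groups. The labels call the libraries biological replicates.

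Of the 36 genes, 1 rose in Rosa-Hes1 cultures (*Cd68*), 2 fell (*Clec4d* and *Olfml3*) and 33 did not pass the test (edgeR, adjusted p under 0.05). In this fit 5.85% of all tested genes were called higher and 2.41% lower, and the numbers called among the 36 were near this background. Under the DESeq2 Wald test 6 of the 36 were lower, against 876 of all 16954 tested genes. With 1 surrogate variable 7 of the 36 were lower, against 945. In each of these alternatives 1 of the 36 was higher, against 1302 and 1254 of all tested genes. In the main edgeR fit the log2 fold change was below 0 for 25 of the 36 (69.4%) against 51.4% of all tested genes. Its median was -0.16 against -0.01, with no test of these differences. Over the alternatives the median of the 36 ranged from -0.30 (without Rosa-Hes1 3) to -0.09 (without Rosa-Hes1 2), being -0.10 without control 3, and that of all tested genes from -0.02 to 0.00. At an unadjusted p under 0.05 (edgeR) there were 10 of the 36, against 4356 of all 16954 tested genes. The 3 libraries of a group did not overlap those of the other in 1 gene that was higher (*Cd68*) and 5 that were lower in Rosa-Hes1 (*Clec4d*, *Olfml3*, *Msr1*, *Ms4a7* and *Ms4a6c*), where 16.6% and 14.5% of all tested genes showed the same. In whole cultures, fewer cells of a type and less RNA per cell cannot be told apart.

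**Figure D1:**
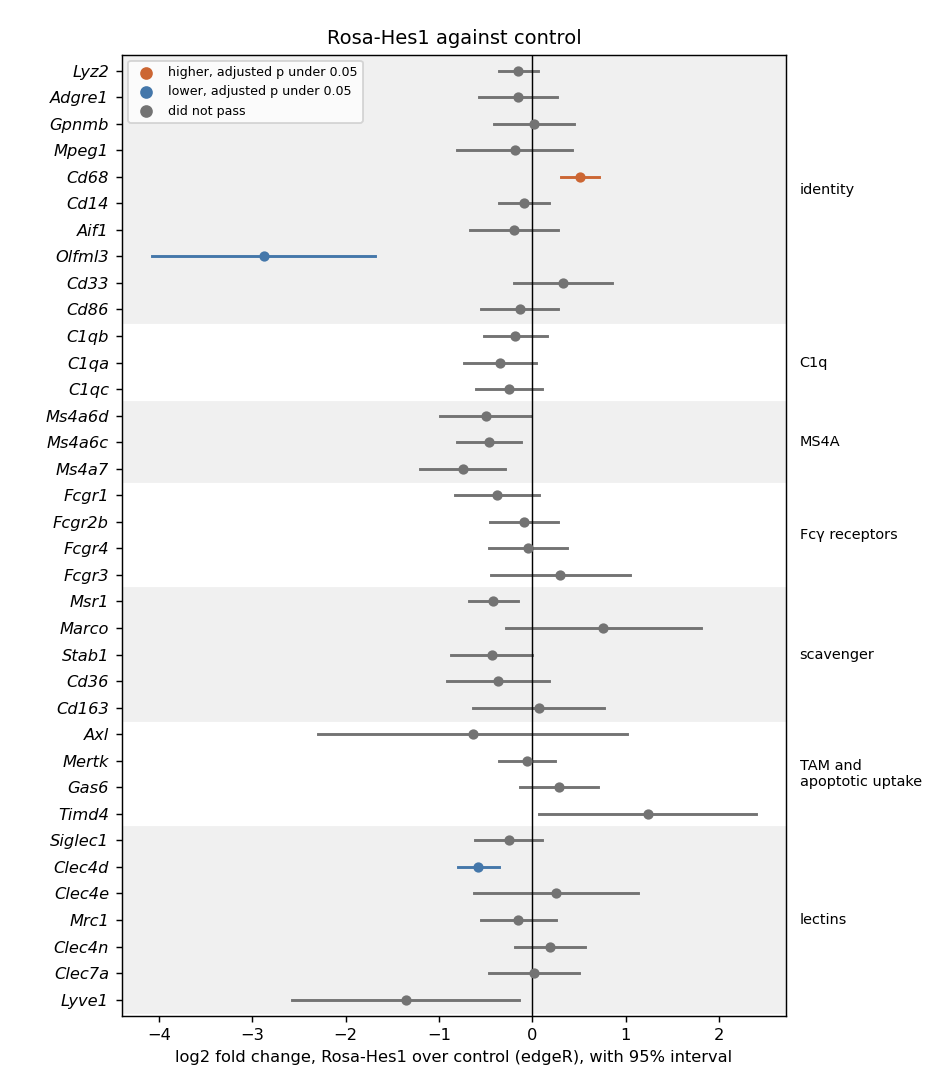
The log2 fold change of each of the 36 genes, Rosa-Hes1 over control, is drawn as a point with its 95% interval, with the genes grouped by role. *Cd68* lies above 0 and *Clec4d* and *Olfml3* below it past the test, whereas the other 33 did not pass.

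*Cd68* encodes a heavily glycosylated late endosomal and lysosomal membrane protein of macrophages that is also abundant in osteoclasts. It was at 766, 826 and 850 CPM in control and 1258, 1025 and 1209 CPM in Rosa-Hes1 cultures, or 814 ± 43.6 and 1164 ± 123 (SD, n = 3). All 3 Rosa-Hes1 libraries exceeded all controls. The log2 fold change was 0.52 ± 0.09 (SE, 95% interval 0.31 to 0.72, edgeR, adjusted p = 0.0142), or 1.43-fold. The call held in the 9 alternatives that keep all libraries, and was lost without control 1 (adjusted p = 0.061), Rosa-Hes1 1 (0.069) or Rosa-Hes1 3 (0.051).

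*Clec4d* encodes a C-type lectin that pairs with the product of *Clec4e* in recognition of mycobacterial glycolipids. It was at 648, 531 and 685 CPM in control and 418, 400 and 431 CPM in Rosa-Hes1 cultures, 621 ± 80.6 and 416 ± 15.2 (SD, n = 3), with every Rosa-Hes1 library below every control. The log2 fold change was -0.58 ± 0.10 (SE, 95% interval -0.80 to -0.36, edgeR, adjusted p = 0.0126), so that the level was 1.49-fold higher in controls. This call also held in the 9 alternatives with all libraries, and was lost without control 1 (adjusted p = 0.052) or Rosa-Hes1 1 (0.069).

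*Olfml3*, a secreted olfactomedin family protein known as a marker of microglia, was at 35.4, 15.2 and 16.4 CPM in control and 4.42, 3.13 and 1.45 CPM in Rosa-Hes1 libraries, 22.4 ± 11.3 and 3.00 ± 1.49 (SD, n = 3). It was among the less abundant of the 36 genes, with 20 to 67 counts per Rosa-Hes1 library, and control 1 held more than the other controls. The log2 fold change was -2.88 ± 0.49 (SE, 95% interval -4.07 to -1.68, edgeR, adjusted p = 0.0237), or 7.35-fold higher in controls. The adjusted p was 0.075 with no filter on low counts, 0.061 without Rosa-Hes1 1, 0.060 without Rosa-Hes1 2, 0.061 without Rosa-Hes1 3 and 0.054 without control 3. *Olfml3* lies 8.21 Mb from *Ctsk* on chromosome 3, the locus that carries Cre in the Rosa-Hes1 mice only, so that an effect of DNA linked to that allele and an effect of HES1 cannot be told apart. Within 10 Mb of *Ctsk*, 3.62% of the 304 tested genes were called lower and 5.59% higher, against 2.41% and 5.85% of all tested genes.

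**Figure D2:**
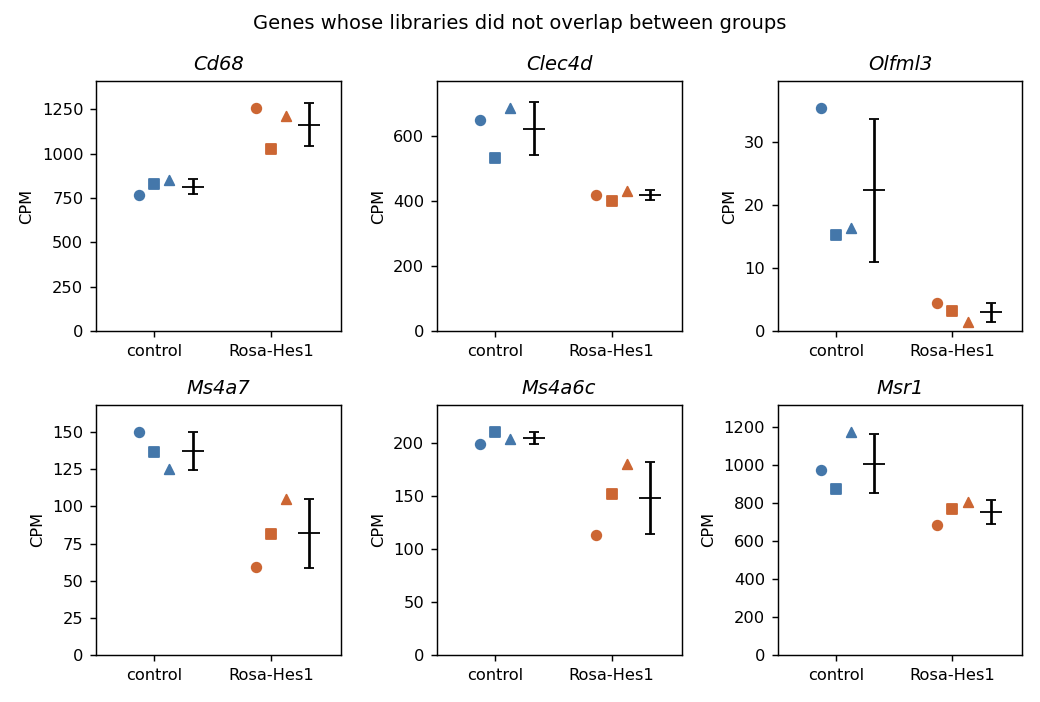
Normalized CPM of the 6 genes whose groups did not overlap, with a symbol per library (circle, square and triangle for libraries 1, 2 and 3) and the mean ± SD beside them, on axes that start at 0. *Cd68* is higher in every Rosa-Hes1 library and the other 5 genes are lower, with the widest relative gap for *Olfml3*.

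Sequences before the transcription start of the 3 called genes are shown because HES1 binds DNA of a known short form. They are the 250 bases before the RefSeq start (GRCm38.p6), 5′ to 3′ on the strand of the gene, and capitals mark an N box, CACNAG, on either strand. *Cd68* has 1 such site, 129 bases before the start, which reads CACGAG and so also matches the class C form CACGNG. *Olfml3* has 2, at 177 and 44 bases before the start, and *Clec4d* has none, nor a class C match.
*Cd68*, chr11:69666171-69666420, minus strand: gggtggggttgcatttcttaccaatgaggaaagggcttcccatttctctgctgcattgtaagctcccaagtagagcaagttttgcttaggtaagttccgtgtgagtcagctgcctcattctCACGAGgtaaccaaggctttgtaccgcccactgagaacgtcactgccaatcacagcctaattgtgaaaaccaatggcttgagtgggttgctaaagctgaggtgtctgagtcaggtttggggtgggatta
*Olfml3*, chr3:103738002-103738251, minus strand: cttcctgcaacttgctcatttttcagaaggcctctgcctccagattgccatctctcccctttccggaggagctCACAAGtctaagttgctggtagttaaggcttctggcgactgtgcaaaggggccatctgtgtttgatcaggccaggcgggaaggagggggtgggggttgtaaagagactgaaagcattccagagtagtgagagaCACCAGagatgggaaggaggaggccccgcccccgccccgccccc
*Clec4d*, chr6:123261857-123262106, plus strand: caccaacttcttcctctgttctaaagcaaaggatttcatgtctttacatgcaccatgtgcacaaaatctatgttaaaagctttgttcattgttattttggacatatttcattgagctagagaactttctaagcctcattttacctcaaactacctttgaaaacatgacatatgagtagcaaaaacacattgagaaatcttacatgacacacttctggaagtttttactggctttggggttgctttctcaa

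The RefSeq table held a start region for 27 of the 36 genes. Of these, 16 (59.3%) had an N box in the 250 bases and 2 (7.41%) a class C match, *Cd68* and *Ms4a7*, compared with 36.7% and 23.7% of all 27025 start regions in the table. The gene that rose and 1 of the 2 that fell thus both carry N box letters. A match of 6 letters is a description of the sequence and not a binding site.

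Identity markers were found at both ends of the order of levels. Per kilobase of exon, over all 6 libraries, *Lyz2* was at 3279 CPM per kb, *Cd68* at 787, *Adgre1* at 545, *Marco* at 432 and *Clec4d* at 325. *Cd86*, *Cd33*, *Timd4*, *Cd163* and *Lyve1* were lowest, at 1.48, 1.33, 0.98, 0.59 and 0.36 CPM per kb. *Timd4*, *Cd163* and *Lyve1* are known as markers of macrophages resident in tissues, as is *Siglec1*, which was at 95.6 CPM per kb.

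**Figure D3:**
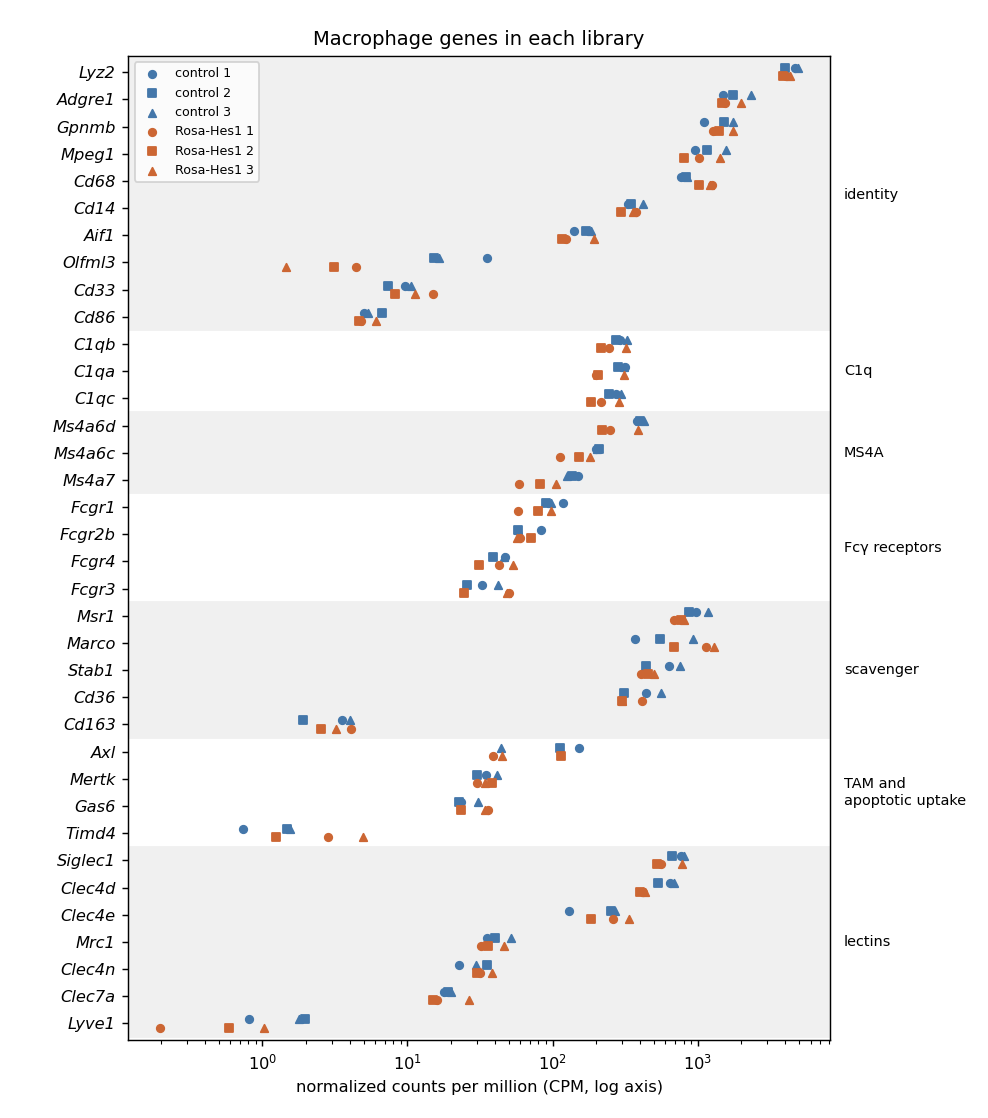
Normalized CPM (log axis) of the 36 genes in the 3 control (blue) and 3 Rosa-Hes1 (orange) libraries, grouped by role and ordered by mean CPM within a role. *Lyz2* lay at 3873 to 4922 CPM over the libraries and *Lyve1* under 2 CPM in each, with no scaling by exon length.

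Among the 10 identity markers, *Cd68* rose, *Olfml3* fell and 8 did not pass. *Lyz2*, which encodes lysozyme, was at 4698, 3999 and 4922 CPM in control and 4064, 3873 and 4338 CPM in Rosa-Hes1 libraries, 4540 ± 482 and 4092 ± 234 (SD, n = 3). These ranges overlapped, with a log2 fold change of -0.15 ± 0.09 (SE, 95% interval -0.36 to 0.06, edgeR, adjusted p = 0.36). *Adgre1*, an adhesion G protein-coupled receptor used to define mouse macrophages, was at 1505, 1753 and 2325 CPM in control and 1539, 1467 and 1999 CPM in Rosa-Hes1 libraries. Its groups overlapped, with an interval of -0.58 to 0.26 around a log2 fold change of -0.16 (adjusted p = 0.65). The pore-forming protein gene *Mpeg1* (log2 fold change -0.19, adjusted p = 0.713), the actin-binding *Aif1* (-0.20, 0.607), the lipopolysaccharide co-receptor *Cd14* (-0.09, 0.707) and the costimulatory *Cd86* (-0.14, 0.702) had values below 0 that did not pass. The sialic acid-binding *Cd33* (0.33, 0.426) and *Gpnmb* (0.02, 0.966), a transmembrane glycoprotein of macrophages and osteoclasts, had values above 0 that did not pass either.

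The chains of C1q, the recognition molecule of the classical complement pathway, are encoded side by side on chromosome 4, with gaps of 3.62 kb between *C1qb* and *C1qc* and 2.85 kb between *C1qc* and *C1qa*. None of the 3 passed. *C1qa* was at 316, 281 and 311 CPM in control and 200, 206 and 310 CPM in Rosa-Hes1 libraries, 303 ± 18.9 and 239 ± 61.6 (SD, n = 3). Rosa-Hes1 libraries 1 and 2 were below all controls and library 3 was among them, for a log2 fold change of -0.34 ± 0.16 (SE, 95% interval -0.73 to 0.04, edgeR, adjusted p = 0.242). Without Rosa-Hes1 3 it was -0.58 with an adjusted p of 0.023, so that this library decided the call. *C1qb* and *C1qc* had the same order of libraries in Rosa-Hes1 cultures as each other, with library 3 at 323 and 285 CPM and library 2 at 215 and 185 CPM. Their log2 fold changes were -0.18 (adjusted p = 0.488) and -0.25 (adjusted p = 0.354).

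The MS4A proteins are membrane-spanning proteins, some of which associate with immune receptors. All 3 genes had negative log2 fold changes with an unadjusted p under 0.05, and none passed after adjustment. *Ms4a7* was at 150, 137 and 125 CPM in control and 59.1, 81.4 and 105 CPM in Rosa-Hes1 libraries, with no overlap, and a log2 fold change of -0.75 ± 0.19 (SE, 95% interval -1.20 to -0.29, edgeR, adjusted p = 0.0595). *Ms4a6c* was at 199, 211 and 204 CPM and 113, 151 and 180 CPM, also with no overlap (log2 fold change -0.46 ± 0.15, SE, adjusted p = 0.0989). In both genes Rosa-Hes1 1 was lowest and Rosa-Hes1 3 nearest to the controls. *Ms4a6d*, the most abundant of the 3 per kilobase, was at 383, 403 and 429 CPM in control and 250, 219 and 390 CPM in Rosa-Hes1 libraries, 405 ± 23.2 and 286 ± 91.3 (SD, n = 3). Rosa-Hes1 3 reached the control range and the groups overlapped (log2 fold change -0.50 ± 0.20, SE, 95% interval -0.99 to -0.02, adjusted p = 0.182). Under the Wald test of DESeq2 all 3 were called lower, with adjusted p of 0.00065 for *Ms4a7*, 0.016 for *Ms4a6c* and 0.035 for *Ms4a6d*. Without Rosa-Hes1 3 edgeR called all 3 lower, at 0.027, 0.042 and 0.021. Of the 9 alternatives that keep all libraries, *Ms4a7* was called in 4, *Ms4a6c* in 1 and *Ms4a6d* in 2. Each of the 3 was called in 1 of the 6 fits that leave out a library, the fit without Rosa-Hes1 3. Exons of *Ms4a6c* overlap those of *BE692007* on the other strand, which shares 53.4% of its 75-base words. The paper names a stranded library kit. The strand setting of the counting was not stated, so that reads of this pair may not have been told apart. The log2 fold change of *BE692007* ranged from -0.94 to -0.33 over the 15 alternatives. It was called lower in 1 of the 9 with all libraries and in 1 of the 6 that leave out a library.

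The Fc gamma receptors bind the constant part of immunoglobulin G, and none of the 4 genes passed. *Fcgr1*, the high-affinity receptor, was at 118, 89.5 and 97.0 CPM in control and 57.9, 79.2 and 97.9 CPM in Rosa-Hes1 libraries, 102 ± 14.9 and 78.4 ± 20.0 (SD, n = 3). Its ranges overlapped through Rosa-Hes1 3, with a log2 fold change of -0.37 ± 0.19 (SE, 95% interval -0.83 to 0.08, edgeR, adjusted p = 0.277). It lies 0.774 Mb from *Ctsk*, so that linked DNA and HES1 cannot be told apart for it either. *Fcgr2b*, the inhibitory receptor, and the activating receptors *Fcgr4* and *Fcgr3* had log2 fold changes of -0.09 (95% interval -0.45 to 0.27), -0.05 (-0.47 to 0.37) and 0.30 (-0.45 to 1.05). The last 3 lie together on chromosome 1, and 7.38% of the 75-base words of *Fcgr3* occur in *Fcgr2b*.

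Among the 5 scavenger receptors none passed, and the most abundant of them differed most within its groups. *Marco*, which binds bacteria and mineral particles, was at 373, 549 and 929 CPM in control and 1143, 691 and 1303 CPM in Rosa-Hes1 libraries, 617 ± 284 and 1046 ± 317 (SD, n = 3). Control 3 was above Rosa-Hes1 2, and the log2 fold change of 0.76 ± 0.41 (SE, 95% interval -0.28 to 1.80, edgeR, adjusted p = 0.327) covers both a fall and a rise above 3-fold. *Msr1*, the class A scavenger receptor for modified lipoproteins, was at 970, 871 and 1175 CPM in control and 683, 767 and 806 CPM in Rosa-Hes1 libraries. The groups did not overlap, and the log2 fold change was -0.42 ± 0.11 (SE, 95% interval -0.68 to -0.16, edgeR, adjusted p = 0.0594). *Msr1* was called lower in 4 of the 9 alternatives with all libraries and without control 2 (adjusted p = 0.047). *Stab1* (log2 fold change -0.44, adjusted p = 0.194) and the fatty acid and thrombospondin receptor *Cd36* (-0.37, 0.376) did not pass, although *Stab1* was at 0.027 without control 2. Exons of *Stab1* overlap *Nt5dc2*, which lies on the other strand and was called lower (-0.56, adjusted p = 0.0118). The hemoglobin scavenger receptor *Cd163* had 31 to 62 counts per library and a log2 fold change of 0.07 (95% interval -0.63 to 0.76).

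None of the 4 genes of TAM signaling and apoptotic cell uptake passed. *Axl*, a receptor tyrosine kinase for GAS6, was at 151, 113 and 44.2 CPM in control and 38.7, 115 and 44.6 CPM in Rosa-Hes1 libraries, 103 ± 54.3 and 66.1 ± 42.5 (SD, n = 3). It split the libraries into 3 at 113 CPM or above (controls 1 and 2 and Rosa-Hes1 2) and 3 under 45 CPM, across the groups, and its log2 fold change was -0.64 ± 0.64 (SE, 95% interval -2.29 to 1.01, edgeR, adjusted p = 0.616). *Mertk*, the related receptor, varied little (30.1 to 41.7 CPM over the 6 libraries, log2 fold change -0.06, 95% interval -0.36 to 0.24). Their ligand gene *Gas6* had a log2 fold change of 0.29 (adjusted p = 0.381). *Timd4*, a phosphatidylserine receptor, had 10, 24 and 21 counts in control and 43, 19 and 68 in Rosa-Hes1 libraries (log2 fold change 1.23 ± 0.50, SE, adjusted p = 0.17). Without Rosa-Hes1 2, the one Rosa-Hes1 library within the control range, *Timd4* was called higher (log2 fold change 1.61, adjusted p = 0.026).

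Among the lectin receptors, *Clec4d* fell and 6 did not pass. *Clec4d* lies 15.1 kb from *Clec4n* and 6.52 kb from *Clec4e* on chromosome 6, 10.2 Mb from the *Rosa26* locus. These neighbors had values above 0, with log2 fold changes of 0.19 (95% interval -0.19 to 0.57) for *Clec4n*, a receptor of fungal mannans, and 0.25 (-0.62 to 1.13) for *Clec4e*. *Clec4e* was at 129, 255 and 270 CPM in control and 261, 185 and 334 CPM in Rosa-Hes1 libraries, with overlap, unlike *Clec4d* in the same cultures. The differences between these neighbors were not tested. The beta-glucan receptor *Clec7a* (0.02, adjusted p = 0.975), the mannose receptor *Mrc1* (-0.15, 0.652) and the sialoadhesin gene *Siglec1* (-0.25, 0.358) did not pass. *Lyve1*, a hyaluronan receptor, had 11, 32 and 24 counts in control and 3, 9 and 14 in Rosa-Hes1 libraries, and its log2 fold change of -1.36 ± 0.53 (SE) had an adjusted p of 0.152.

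**Figure D4:**
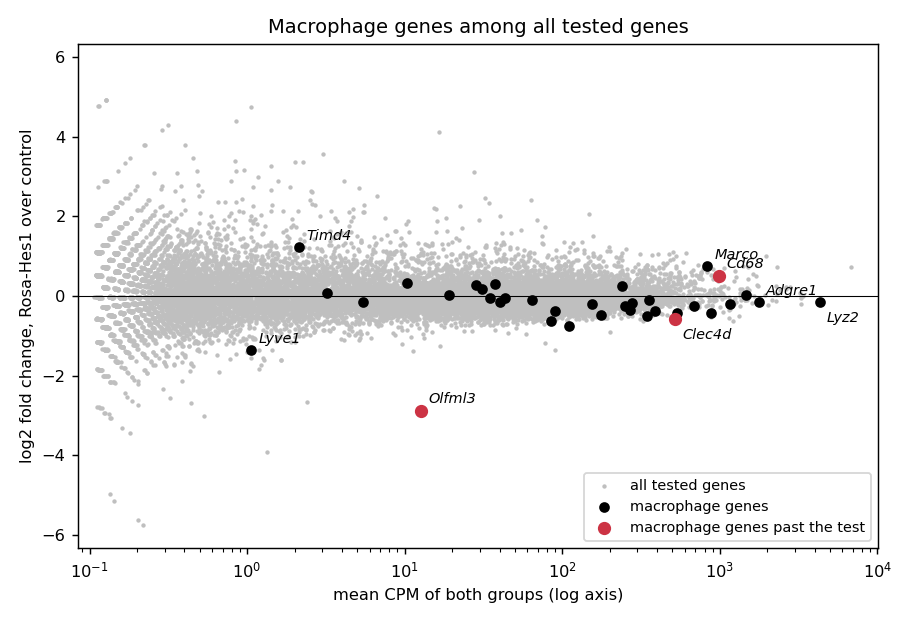
The log2 fold change of each tested gene (gray) against its mean CPM over both groups (log axis), with the 36 macrophage genes in black and the 3 past the test in red. *Olfml3* stands apart from most genes of like abundance, whereas most of the 36 lie within the spread of the gray points.

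Libraries of the same group differed in a shared manner across the 36 genes. Control 3 was the highest control in 25 of the 36 (69.4%, against 35.5% of all tested genes), and Rosa-Hes1 3 the highest Rosa-Hes1 library in 25 (69.4%, against 31.3%). Rosa-Hes1 2 was the lowest of its group in 22 (61.1%, against 37.6%). These counts describe the libraries, since the levels of such genes may vary jointly. The summed level of the 36 genes was 15700, 15460 and 19380 CPM in control and 15050, 13840 and 17830 CPM in Rosa-Hes1 libraries, and these ranges overlapped.

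**Figure D5:**
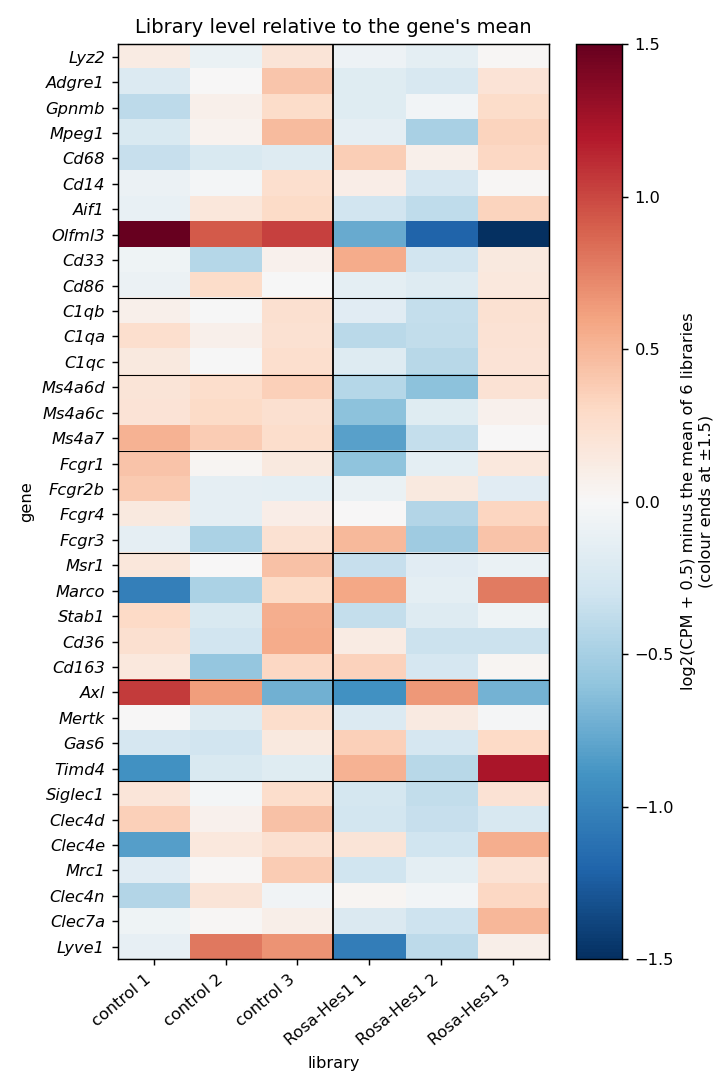
For each of the 36 genes and 6 libraries, the color gives log2(CPM + 0.5) minus the mean of the gene over the libraries. The third column of each group is red for most genes. *Olfml3* and *Clec4d* are lower across the right side, and the MS4A genes are lower in Rosa-Hes1 1 and 2.

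A further 63 genes list transcription factors, signaling proteins, integrins and other receptors of the same cells. In Rosa-Hes1 cultures 3 of these rose, 9 fell and 51 did not pass, where 5.85% of all tested genes were higher and 2.41% lower. The genes that rose were *Mfge8*, a bridge between dying cells and integrins (log2 fold change 0.99, adjusted p = 0.00785), *Itgax* (0.82, 0.0178) and *Syk*, the kinase downstream of Fc gamma and lectin receptors (0.46, 0.0228). Those that fell included the phosphatidylserine-binding chemokine *Cxcl16* (-0.51, 0.0101), the lysosomal *Scarb2* (-0.42, 0.0112), the lectin *Clec5a* (-0.54, 0.0131), the complement receptor *C3ar1* (-0.58, 0.0177), the engulfment protein *Dock1* (-0.43, 0.0206) and *Itgb5* (-0.52, 0.0257). The median log2 fold change of the 63 was -0.16. Leaving out 1 library changed these counts to between 1 and 5 higher and between 0 and 14 lower, with none lower without Rosa-Hes1 1.

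Markers of other cells and states were read beside the 36 genes. Of 15 osteoclast markers, 12 were higher and none lower, as with *Tcirg1* (log2 fold change 0.62, adjusted p = 0.0055), *Itgb3* (0.78, 0.00567) and *Clcn7* (1.08, 0.00659), and their summed level was 12620 to 16020 CPM in control and 20100 to 23400 CPM in Rosa-Hes1 libraries. This list holds some genes that the study names as increased, such as *Itgb3*, and is not independent evidence of a direction. Of 15 genes of dividing cells, 5 were lower and none higher, with all 15 log2 fold changes below 0 (the most abundant per kilobase of exon were *Pcna*, -0.44, adjusted p = 0.0333, and *Mcm5*, -0.51, adjusted p = 0.0534), and the sums were 2920 to 3348 and 1796 to 2740 CPM. The part of either shift in the values of *Cd68*, *Clec4d* and *Olfml3* was not tested. None of the tested markers of monocytes, neutrophils, dendritic cells, B cells, T and NK cells, stroma, erythroid cells and megakaryocytes, endothelium or mast cells was called. Their sums overlapped between the groups, from 299.5 to 471.7 in control and 315.2 to 549.4 CPM in Rosa-Hes1 libraries for monocytes and from 275.7 to 550.4 and 262.5 to 373.5 CPM for neutrophils to under 1 CPM for T and NK cells. Stroma summed to 174.5 to 476.9 CPM in control and 108.7 to 371.2 CPM in Rosa-Hes1 libraries. The log2 fold change was above 0 for all 8 tested markers of dendritic cells. Of the 11 neutrophil markers, 10 were below 0 and 1 above. *Igll1*, *Cd3e*, *Cd3g*, *Cd209a* and *Tpsb2* had 0 counts in all 6 libraries.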

How the data were processed

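RNA-Seq of 3 control and 3 Rosa-Hes1 osteoclast cultures was analysed. The authors deposited whole-number counts per Ensembl mouse gene with no normalization, 1 file per library, which they made by trimming (Sickle), alignment (HISAT2 2.1.0, SAMtools 1.9), deduplication (Picard) and assignment to genes (HTSeq). The methods name a human genome, but the processing notes name GRCm38 and the identifiers are of mouse. Reads outside genes (17.4% to 18.1% of each library) and ambiguous reads (5.51% to 6.07%) were left out. Deduplication without molecular identifiers can lower the counts of short, abundant genes such as *Lyz2*.

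A sum of at least 10 counts over the 6 libraries was required of a gene, and the groups were compared in edgeR 4.0.16 (R 4.3.3) by a two-sided quasi-likelihood test with TMM normalization, robust dispersions and Benjamini-Hochberg adjustment over 16954 genes. An adjusted p under 0.05 was called. Standard errors were derived from the F statistic. Names and positions came from GENCODE M21. The script was tested on simulated data. The 36 genes and all lists were chosen with earlier results of these data known. Named are all 36 genes, up to 6 called partner genes in each direction, up to 3 osteoclast markers, the most abundant genes of some other lists, *Hes1*, *BE692007* and *Nt5dc2*. *BE692007* and *Nt5dc2* overlap *Ms4a6c* and *Stab1*. Exons of *Fcgr2b* and *Gas6* also overlap genes on the other strand, *Gm38204* and *Tmem255b*, whose levels are not given. Alternatives used edgeR with other scaling, filters and dispersions, DESeq2 1.42.0, limma 3.58.1 (voom), a surrogate variable from sva 3.50.0, the replicate number as a block, and each library left out.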

Additional observations from a re-analysis of the deposited data

How the results depend on the processing

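Over 9 alternatives with all libraries, *Cd68* and *Clec4d* stayed past the threshold in 9 and *Olfml3* in 8. Of the 36 genes, 25 kept the sign of their log2 fold change over all 15 alternatives and 11 did not, and no called gene changed sign. The number of libraries and the low counts of *Lyve1*, *Timd4*, *Cd163* and *Olfml3* limit precision, and leaving out a library leaves 2 in its group.

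Genes called lower among the 36 were 6 under the DESeq2 Wald test and 7 with 1 surrogate variable, and leaving out 1 library gave 0 to 2 higher and 0 to 5 lower, with none of either without Rosa-Hes1 1. Among all tested genes, 697 were lower with no filter on low counts, 876 under the DESeq2 Wald test, 917 with limma-voom and 945 with 1 surrogate variable, against 408. Leaving out 1 library gave 244 to 1555 higher, against 991, and 21 to 1091 lower, the most of both without Rosa-Hes1 2. Of the 63 partner genes, 5 were higher with no filter, under the DESeq2 Wald test and with 1 surrogate variable, and 16 were lower under the DESeq2 Wald test. Without 1 library they numbered 1 to 5 higher and 0 to 14 lower. Of the osteoclast markers, 4 to 12 were higher without 1 library. The cause of these changes was not tested.

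No label states that library numbers pair the samples. Deviations of same-numbered libraries correlated at -0.02, -0.15 and 0.38 for libraries 1, 2 and 3. Libraries of different numbers across the groups ranged from -0.49 (control 1 and Rosa-Hes1 3) to 0.48 (control 1 and Rosa-Hes1 2). With 3 libraries per group these values cannot decide whether a pairing existed. With the replicate number as a block, 1 of the 36 genes was called higher and 3 lower (the third was *Msr1*, adjusted p = 0.0464), and 710 and 340 of all genes.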
